A study of Mus musculus with 36 samples.

Results

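Expression profiles of the peri-ductal stroma were compared between wild type fetuses whose dams received 17α-ethinylestradiol (EE2) and wild type fetuses whose dams received vehicle. The comparison rests on 6 of the 36 arrays, 3 for EE2 and 3 for vehicle, chosen by their labelled genotype, tissue and treatment and read across all 45101 probe sets. All 6 fetuses were female ERα(+/+) mice of the C57BL/6 background at embryonic day (E) 19, from matings in which both parents carried 1 disrupted allele of ERα. Dams carried an osmotic pump from E8 that delivered 10 ng EE2 per kg body weight per day in DMSO, or DMSO alone, so the dam as well as the fetus was exposed. Stroma lying next to the epithelial ducts of the fourth inguinal mammary gland was captured by laser, 1 fetus per litter and 3 litters per group, and its RNA was amplified before hybridisation to Affymetrix mouse arrays. Other arrays of the design serve as background, namely stroma of ERα(−/−) fetuses with EE2 or vehicle, wild type stroma with 250 ng bisphenol A (BPA) per kg per day, and the wild type epithelium.

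EE2 is a synthetic estrogen that binds and activates ERα, the product of Esr1, a nuclear receptor that binds DNA at estrogen response elements and recruits coactivators such as the products of Ncoa1 and Med1. In the mammary gland, estrogen signals reach the epithelium in part through the stroma, which supplies growth factors, matrix and, later, fat. Before birth the epithelium is a small rooted tree within a dense mesenchyme, next to the fat pad precursor. A probe set is a group of short probes for 1 transcript, and its signal is a hybridisation intensity in arbitrary units. Changes are given on the log2 scale as EE2 minus vehicle, with the standard error (SE) and the p of a limma fit over all 18 stroma arrays, and adjusted p is the Benjamini-Hochberg value over all 45101 probe sets.

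Markers of the labelled tissue were read first, but no epithelium array was set beside them, so purity was not tested. Collagen and matrix genes of fibroblasts were bright. Col1a1, the main fibrillar collagen chain, had signals of 11285.4, 8516.4 and 12256.4 on the EE2 arrays against 10482.5, 11142.6 and 12470.6 on the vehicle arrays, and Postn, a matricellular protein, had 4522.8, 3675.9 and 6030.5 against 4485.2, 4112.9 and 5914.9. The 27 measured fibroblast markers made up 0.683% to 0.802% of summed signal with EE2 and 0.767% to 0.791% with vehicle. Epithelial markers made up 0.0351% to 0.0926% with EE2 and 0.0599% to 0.113% with vehicle.

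Not every array resembled its group. Replicates are numbered as labelled. EE2 replicate 2 carried a high skeletal muscle signal: Myh8, a perinatal myosin heavy chain, had signals of 11.6, 7609.9 and 10.1 with EE2 against 14.2, 7.0 and 0.4 with vehicle. The whole list of 35 measured muscle genes took 0.0119%, 0.542% and 0.00518% of summed signal on the EE2 arrays and 0.00853%, 0.00523% and 0.0064% on the vehicle arrays. On the other 12 stroma arrays, used in the comparisons with genotype and BPA, that share ran from 0.00525% to 0.483%, and the list's median EE2 change in ERα(−/−) stroma was 1.39. Vehicle replicate 3 carried a cornified epidermis signal, with Lor (loricrin, the main protein of the cornified envelope) at 18.3, 27.7 and 7.4 with EE2 and at 6.3, 16.7 and 4897.4 with vehicle. Vehicle replicate 2 was dimmer than the others, with a median signal of 12 against 37.2 on each of the other vehicle arrays and 25.3 to 27.8 on the EE2 arrays. Its correlations with the other 5 arrays were 0.698 to 0.726, where all other pairs had 0.760 to 0.821. The ratio of 3′ to 5′ signal of Gapdh, a measure of how much of a transcript was copied, was 6.01 to 11.1 with EE2 and 8.8 to 14.5 with vehicle (exact permutation test, two-sided, p = 0.30). That of β-actin was 0.605 to 1.23 with EE2 and 0.743 to 1.44 with vehicle (p = 0.60 by the same exact test). The study's methods give an upper limit for such ratios that the Gapdh values exceed and the actin values do not. With 3 arrays against 3 the smallest p that this exact test allows is 0.10.

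**Figure D1:**
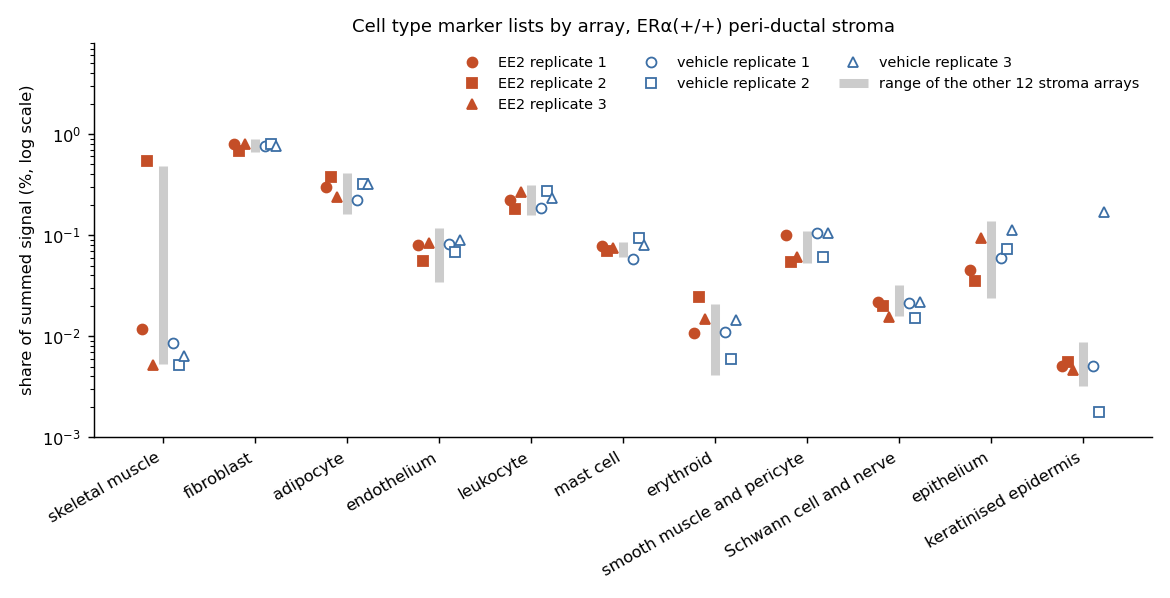
Share of summed signal (%, log scale) taken by each cell type marker list on the 3 EE2 arrays (filled) and the 3 vehicle arrays (open) of wild type stroma. The skeletal muscle list stands at 0.542% on EE2 replicate 2 and the keratinised epidermis list at 0.171% on vehicle replicate 3, while the fibroblast list lies between 0.683% and 0.802% on all 6.

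Across the 45101 probe sets, 0 passed an adjusted p of 0.05 in the limma fit, and the lowest adjusted p was 0.296. At an unadjusted p under 0.05 there were 1994 probe sets (4.42%), of which 918 were higher with EE2 (2.04%) and 1076 lower (2.39%). Groups of 3 that did not overlap were found for 3191 probe sets (7.08%), 1465 higher (3.25%) and 1726 lower (3.83%), and 52.4% of all probe sets had a change above 0. With 1 probe set per gene, the brightest, 710 of 18194 genes had p under 0.05 (3.9%), 323 higher (1.78%) and 387 lower (2.13%), 6.94% did not overlap (3.01% higher and 3.94% lower), and 52.3% had a change above 0. After quantile normalization of the 18 stroma arrays the count at adjusted p under 0.05 was again 0 and that at unadjusted p under 0.05 was 2504 (5.55%). By the methods' t-test and a 2-fold minimum there were 813 probe sets (1.8%), and 0 after Benjamini-Hochberg adjustment. On the deposited scale the balance of directions depended on which vehicle arrays were kept: without vehicle replicate 2 there were 417 higher and 1707 lower probe sets at unadjusted p under 0.05, without vehicle replicate 1 there were 1963 and 1068, and without vehicle replicate 3 there were 1956 and 843. After quantile normalization the same omissions gave 1029 higher and 966 lower, 1823 and 1680, and 1702 and 1469. The median change over all probe sets was 0.06, and −0.32 without vehicle replicate 2. No gene below is therefore called changed, p under 0.05 means the unadjusted limma p throughout, and a gene not said to be under 0.05 was not. The p-values measure the spread between fetuses of different litters.

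The probe sets with small p were mostly dim. They were classed by geometric mean signal over all stroma arrays of the fit, not only those compared. Of the 13970 probe sets under 10, 5.62% had a p under 0.05. The share was 3.47% of those between 100 and 300, and 0 of the 1985 at or above 1000. The median SD of the 3 log2 signals was 1.31 with EE2 and 1.34 with vehicle in the dimmest class, and 0.42 and 0.43 in the brightest. The fit uses 1 prior variance for all signals, so bright probe sets were held to the spread of dim ones. A fit whose prior variance follows the signal gave p under 0.05 for 59 of the 1985 brightest, 8 higher and 51 lower (2.97%), and again 0 at adjusted p under 0.05 over all probe sets.

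**Figure D2:**
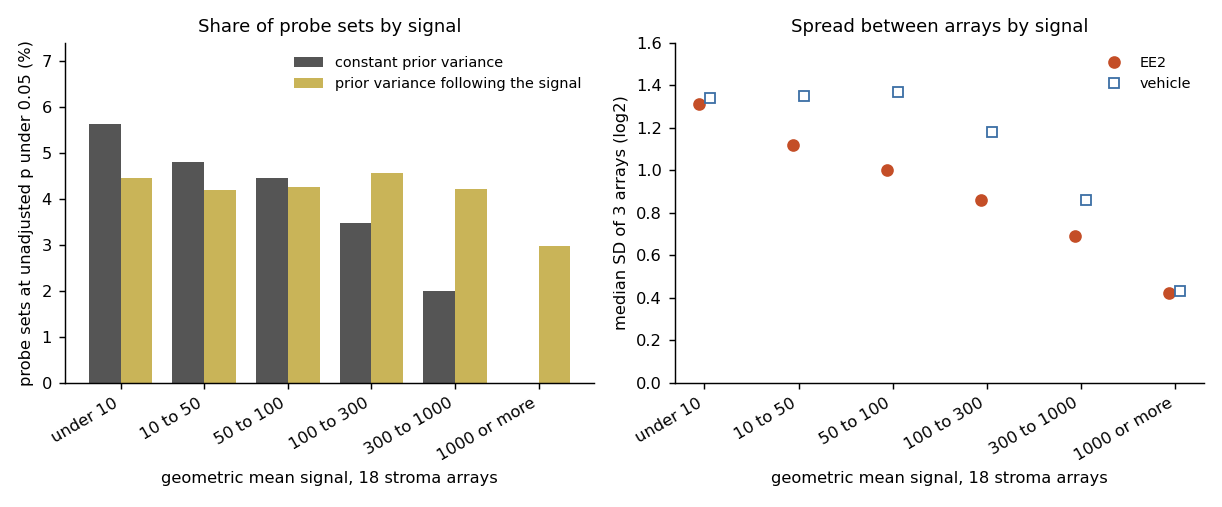
Left, share of probe sets (%) with unadjusted p under 0.05 by geometric mean signal over all stroma arrays of the fit. Shares are given for the limma fit with 1 prior variance and for the fit whose prior follows the signal. Right, median SD of the 3 log2 signals in each class with EE2 and with vehicle, which is 1.31 and 1.34 in the dimmest class and 0.42 and 0.43 in the brightest.

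Because nothing passed adjustment, genes were singled out by size, overlap and p: no overlap of the 3 EE2 and 3 vehicle arrays before and after quantile normalization, a change of at least 1 on the log2 scale and p under 0.05 on both scales, and a mean signal of at least 100 in the brighter group. This held for 129 probe sets of 127 genes higher with EE2 and 144 of 141 genes lower, and the 12 genes with the smallest p are described in each direction. Their distance between groups is what chose them and supports nothing. Many of the signals on the lower side were close to 0, and these set the size of a log2 change. With 16 added to every signal before log2, the changes were 2.01 to 3.19 for the 12 higher genes in place of 2.62 to 6.46, and −4.08 to −1.98 for the 12 lower genes in place of −6.42 to −2.77. Adjusted p ran from 0.984 to 0.999 for the 12 higher genes and from 0.486 to 0.999 for the 12 lower genes.

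Among the 12 higher genes, Bmp1, the protease that trims procollagen, had signals of 61.7, 217.9 and 386.0 with EE2 against 7.5, 15.9 and 15.3 with vehicle (log2 change 3.82, SE 0.95). Plat, tissue plasminogen activator, had 27.4, 123.9 and 457.1 against 17.4, 3.1 and 0.8 (5.04, SE 1.30). Metrnl, a secreted protein of muscle and fat, had 46.5, 236.9 and 242.0 against 3.1, 0.6 and 2.1 (6.46, SE 1.88, and 3.16 with 16 added). In all of these the lowest EE2 array lay above the highest vehicle array, for Plat by 27.4 to 17.4 only, and the vehicle signals were near the dim end of the arrays. St6galnac4, which adds sialic acid to glycans, had 217.8, 83.9 and 158.1 with EE2 against 22.1, 13.1 and 36.8 with vehicle (2.69, SE 0.70).

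Snx4, a sorting nexin of recycling endosomes, had signals of 194.1, 162.5 and 398.5 with EE2 against 33.2, 2.4 and 25 with vehicle (4.21, SE 1.16). Ap1g1, a subunit of the clathrin adaptor AP-1, had 653.4, 282.5 and 462.6 against 163.7, 1.6 and 40.4 (4.33, SE 1.33). Agap3, an Arf GTPase activating protein, had 69.6, 30.1 and 505.1 against 7.7, 8.0 and 8.8 (3.64, SE 0.96). The spread lay with EE2 for Agap3, whose replicate 3 stood far above the others, and with vehicle for Ap1g1, whose replicate 2 was close to 0. Sfxn2, a mitochondrial membrane carrier, had 276.7, 373.8 and 340.7 with EE2 against 20.1, 7.3 and 59.0 with vehicle (4.0, SE 1.12). Tlr3, the endosomal receptor for double-stranded RNA, had 487.7, 248.8 and 310.5 against 74.0, 0.8 and 67.4 (4.40, SE 1.32). The 3 EE2 arrays were tight for both genes, and vehicle replicate 2 was the lowest array. The other 3 were Sugp2, a splicing-related protein, Hlx, a homeobox factor of mesenchyme, and Map9, which binds microtubules, with changes of 5.23, 2.62 and 3.34. Vehicle replicate 2 was the lowest of the vehicle arrays in 9 of the 12 genes, and without it the change was 2.44 for Ap1g1, 2.25 for Tlr3 and 1.82 for Map9.

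Acer3, an alkaline ceramidase of sphingolipid breakdown, had the smallest p among the named genes. Its signals were 0.2, 11.4 and 1.2 with EE2 against 107.8, 144.5 and 69.8 with vehicle (log2 change −6.20, SE 1.09, adjusted p = 0.486). All vehicle arrays lay well above all EE2 arrays, which were near 0, and with 16 added to each signal the change was −2.60. The brightest Acer3 probe set went the other way, with mean signals of 94.4 with EE2 and 72.1 with vehicle (0.90, SE 1.07). Without EE2 replicate 2, the array with muscle signal, its change was −7.71 and its adjusted p 0.0181. That made it the 1 probe set to pass adjustment in that setting.

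Of the other lower genes, Lcat, which esterifies cholesterol in lipoproteins, had signals of 6.6, 1.9 and 29.5 with EE2 against 167.5, 148.4 and 138.0 with vehicle (−4.39, SE 1.14). Pms1, a mismatch repair protein, had 9.3, 17.3 and 11.8 against 142.3, 164.1 and 64.0 (−3.21, SE 0.78). Igsf6, an immunoglobulin superfamily protein of myeloid cells, had 15.4, 4.7 and 83.1 against 183.1, 761.7 and 277.2 (−4.22, SE 0.99). The vehicle arrays were close together for Lcat and spread for Igsf6, and no pair of groups overlapped. Cald1, the actin-binding protein caldesmon, had 18.1, 43.8 and 2.4 with EE2 against 347.5, 252.8 and 102.2 with vehicle (−4.07, SE 1.08). Nr2f2, the orphan nuclear receptor COUP-TFII, had 14.9, 0.9 and 2.7 against 40.1, 619.3 and 52.6 (−5.05, SE 1.30), and Tsx, an X-linked gene known from testis, had 9.2, 0.9 and 3.9 against 36.7, 2200.7 and 51.7 (−5.66, SE 1.42, and −3.29 with 16 added). For Nr2f2 and Tsx the mean with vehicle rested on replicate 2, the dimmest array, although the other vehicle arrays also lay above the EE2 arrays, and without it the changes were −3.80 and −3.77. Ppp2r5e (a regulatory subunit of protein phosphatase 2A), Trim45 (a ubiquitin ligase), Cltc (clathrin heavy chain), Hp1bp3 (a heterochromatin protein) and Sumf2 (a sulfatase-modifying protein) had changes of −6.42, −5.41, −2.77, −3.83 and −4.33, and the change of Trim45 was −2.71 with 16 added. Vehicle replicate 2 was the highest of the vehicle arrays in 8 of the 12 lower genes. All 24 genes had p under 0.05 when any 1 of the 6 arrays was left out, which their choice by small p and no overlap favours.

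**Figure D3:**
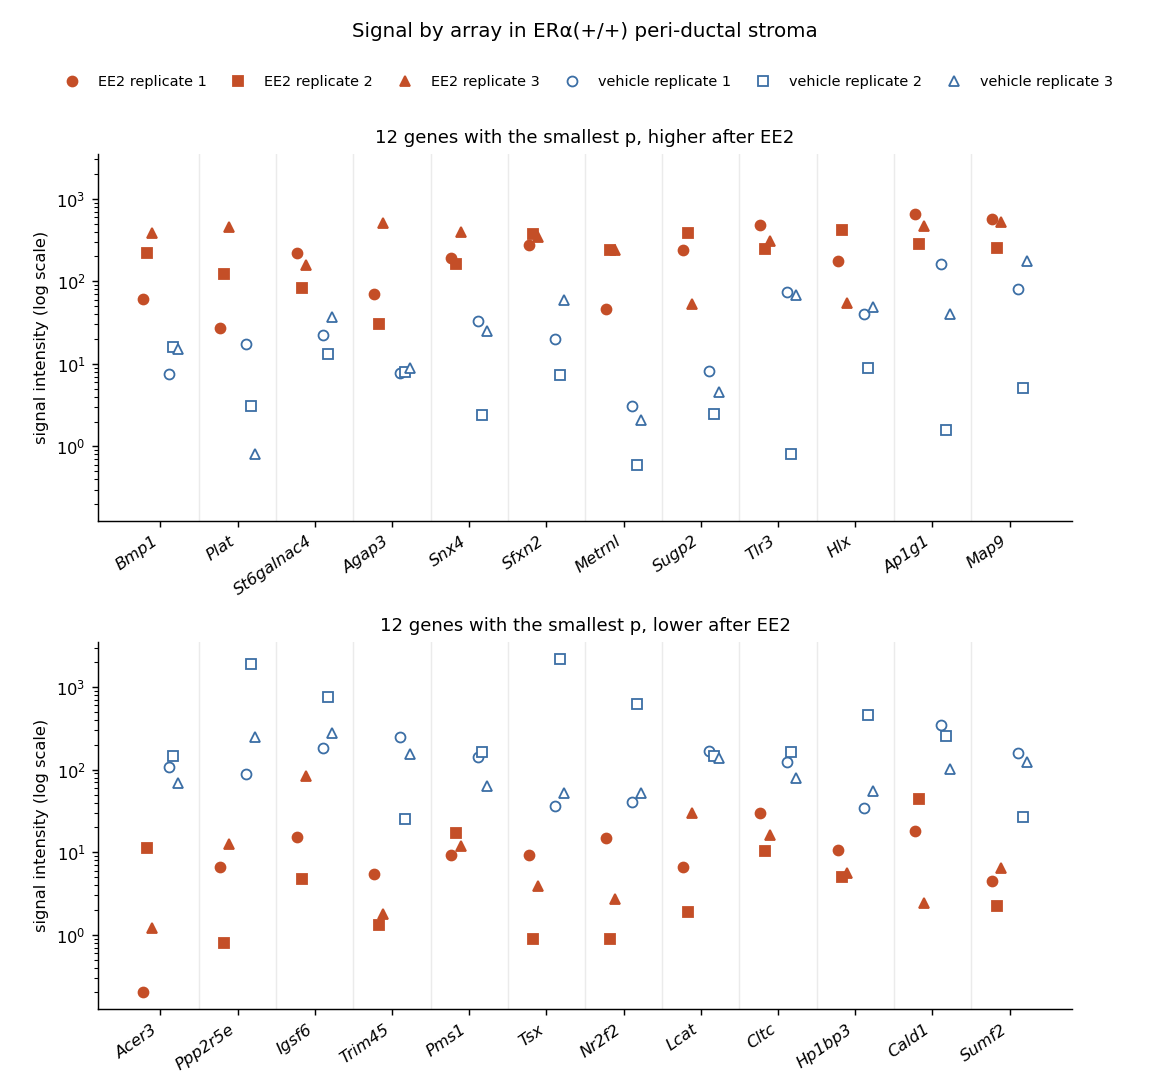
Signal (log scale) of the 12 higher and the 12 lower genes on each EE2 array (filled) and each vehicle array (open) of wild type stroma. Groups do not overlap in any panel because the genes were chosen so, and vehicle replicate 2 (open square) is the lowest vehicle array in 9 of 12 genes above and the highest in 8 of 12 below.

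Many genes are read by several probe sets, and the others often gave a different answer. The 12 higher genes had 20 further probe sets, of which 10 had the same sign and 2 a p under 0.05, and the 12 lower genes also had 20, of which 10 had the same sign and 0 a p under 0.05. The brightest probe set of Nr2f2 had mean signals of 777.7 with EE2 and 1140 with vehicle (−0.18), against the −5.05 of the dimmer one. That of Hp1bp3 had 1756 with EE2 and 1806 with vehicle (−0.14), and that of Ap1g1 had 1134 and 1202 (0.03). For 5 of the 24 genes the brightest probe set had the opposite sign, with changes of −0.87 for Metrnl, −1.51 for Plat, 0.90 for Acer3, 0.93 for Ppp2r5e and 0.92 for Sumf2. The transcripts that each probe set reads were not compared.

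Genes with agreeing probe sets were then listed, a choice made after the values were seen and so given without a test. Among 9012 genes with 2 or more probe sets, 25 had at least 2 with p under 0.05 and higher, and 25 had at least 2 lower. Foxm1, a transcription factor of mitotic entry, had 3 of 4 lower: 21.3, 8.9 and 5.7 with EE2 against 44.0, 106.4 and 115.3 with vehicle (−2.99, SE 1.00), 66.3, 33.4 and 36.1 against 78.6, 128.3 and 188.4 (−1.52, SE 0.60), and 0.3, 0.7 and 7.6 against 7.6, 10.0 and 10.0 (−2.97, SE 1.03). In the first pair of probe sets every vehicle array exceeded every EE2 array, and in the last the groups met at 7.6. The remaining probe set went the other way, with 64.5, 114.5 and 311.3 with EE2 against 78.6, 8.4 and 63.7 with vehicle (1.92). Tacc3, a spindle protein, had 2 lower probe sets (−2.15 and −1.73), and so had Cenpn, a kinetochore protein (−3.34 and −2.21). The brightest probe set of Tacc3 had a change of 0.08.

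Bcl2, the anti-apoptotic mitochondrial protein, had 3 of 5 probe sets higher and all 5 of positive sign. The brightest had signals of 2162.2, 406.3 and 859.0 with EE2 against 704.6, 9.2 and 153.2 with vehicle (3.19, SE 1.39), and overlapped between groups. Without vehicle replicate 2 its change was 1.47 and its p no longer under 0.05. Rora, an orphan nuclear receptor of circadian and metabolic control, had 2 of 9 probe sets lower: 20.3, 23.4 and 26.8 with EE2 against 40.6, 210.6 and 149.3 with vehicle (−2.22, SE 0.81), and 16.6, 20.4 and 10.4 against 125.7, 544.8 and 86.7 (−3.57, SE 1.04). The groups did not overlap in either. Crk, an adaptor of focal adhesion signalling, had 2 higher of 5, with 626.7, 379.9 and 570.6 with EE2 against 297.2, 140.1 and 278.5 with vehicle (1.18, SE 0.55), while its brightest probe set had a change of −0.22. Mmrn2, an endothelial matrix protein, had 2 lower of 4, with changes of −3.50 and −1.32.

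Among the 1985 probe sets with a geometric mean signal of at least 1000, some were singled out, again with the values in view. In these, 15 did not overlap between groups and had p under 0.05 in the fit whose prior variance follows the signal. Whether they overlapped or not, 59 of the 1985 had such a p, 8 higher and 51 lower. Lack of overlap alone was found for 7.08% of all 45101 probe sets. Aldh2, the mitochondrial aldehyde dehydrogenase, stood on the higher side with signals of 2143.4, 2485.8 and 2051.9 with EE2 against 983.3, 807.7 and 1155.3 with vehicle. Means were 2227 ± 228.7 with EE2 and 982.1 ± 173.8 with vehicle (SD, n = 3 each), a log2 change of 1.19 (SE 0.62). Both groups were tight, and 4 of the 5 Aldh2 probe sets had a positive change. The brightest of them overlapped between groups, with 2279.2, 1997.4 and 3270.6 with EE2 against 1267.8, 1076.5 and 2619.8 with vehicle (0.69, SE 0.60). Fbln1, a matrix glycoprotein, had 2445.5, 1877.1 and 2162.4 with EE2 against 1780.5, 820.5 and 1114.2 with vehicle (0.87), and all 3 of its probe sets were positive. The other 13 were lower with EE2. Cald1 appears here through a probe set with 1563.8, 1099.3 and 2442.0 with EE2 against 2631.2, 4236.8 and 3513.4 with vehicle (−1.07, SE 0.54). This one and the dimmer one above were both picked for lack of overlap, and 3 of the 5 Cald1 probe sets had a negative change. Of the others, 1 had 1495.4, 582.1 and 1292.8 with EE2 against 1298.9, 569.3 and 1325.4 with vehicle, and 1 had 1809.4, 442.8 and 777.3 against 1538.3, 431.0 and 477.7. Epas1, the hypoxia-inducible factor 2α, had 836.2, 1106.7 and 1085.1 with EE2 against 1826.7, 1723.8 and 1594.7 with vehicle (−0.77, SE 0.50), and both its probe sets were negative. Cttn, which binds cortical actin, had 1499.6, 806.1 and 1044.8 against 1925.8, 3599.9 and 1725.5 (−1.08), and Acly, which makes cytosolic acetyl-CoA for lipid synthesis, had 2329.1, 1868.4 and 2553.3 against 3433.0, 3158.2 and 6849.4 (−0.91). A negative change was found for 3 of the 5 Cttn and 3 of the 6 Acly probe sets, and the brightest of Cttn had −0.62. Adjusted p was 0.999 for all 15 in that fit, and none of the 15 had p under 0.05 in the fit with 1 prior variance. Of the genes described here, Fbln1, Epas1 and Cttn overlapped between groups after quantile normalization.

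Receptors for estrogens and related ligands gave the next question. Esr1 had signals of 51.5, 20.3 and 213.4 with EE2 against 50.4, 201.3 and 396.7 with vehicle in wild type stroma (−1.39, SE 0.98), and the groups overlapped. Gper1, the membrane G protein-coupled estrogen receptor also called GPR30, had 30.1, 164.5 and 22.2 with EE2 against 162.0, 1206.9 and 598.8 with vehicle (−3.35, SE 0.98, adjusted p = 0.999). The groups met only where EE2 replicate 2 (164.5) passed vehicle replicate 1 (162.0). A second Gper1 probe set had 11.8, 496.1 and 12.8 with EE2 against 35.4, 10.0 and 19.6 with vehicle, dominated by EE2 replicate 2. The name of the first ends in x_at, the maker's mark for probes that can also match other transcripts, as do those of the named Metrnl and Sfxn2 probe sets. Esr2, which encodes ERβ, was dim, with 8.7, 29.6 and 3.1 with EE2 against 26.0, 5.4 and 3.6 with vehicle (0.22).

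Over the 25 measured nuclear and estrogen receptors, 1 was higher and 2 lower at p under 0.05, beside the 1.78% and 2.13% of all 18194 genes. The median change was 0.07, against 0.05 over all genes. The higher one was Nr3c2, the mineralocorticoid receptor, with 19.2, 35 and 22.3 with EE2 against 16.8, 1.9 and 2.4 with vehicle (2.54, SE 0.96), and the lower ones were Gper1 and Esrrg, an estrogen-related orphan receptor, with 8.8, 14.8 and 3.9 against 38.2, 19.2 and 25.6 (−1.74, SE 0.81). Neither Nr3c2 nor Esrrg overlapped between groups, though both were dim. Thra, thyroid hormone receptor α, had 431.5, 353.8 and 349.9 with EE2 against 518.7, 1006.0 and 747.8 with vehicle (−0.96, SE 0.57), without overlap. These values are of the brightest probe sets, and the further ones of Esrrg and Thra overlapped. A Thra one had 252.4, 98.0 and 511.3 with EE2 against 145.0, 167.4 and 85.1 with vehicle. Nr3c1, the glucocorticoid receptor, had 716.9, 502.9 and 585.6 against 189.3, 80.7 and 729.7 (1.41), and vehicle replicate 3 exceeded all EE2 arrays. The summed share of the receptor list was 0.0396% ± 0.00309 with EE2 and 0.0507% ± 0.00733 with vehicle (SD, n = 3 each; exact permutation test, two-sided, p = 0.10, the smallest possible, 1 of 36 such measures).

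Trim29, a tripartite motif protein that the study singled out on these samples, had 3 close EE2 values. Its signals were 27.0, 28.8 and 28.6 with EE2 against 67.8, 150.3 and 118.1 with vehicle, means of 28.1 ± 0.987 and 112 ± 41.6 (SD, n = 3 each; −1.92, SE 0.57, adjusted p = 0.999). The 3 wild type vehicle arrays lay above all 15 other stroma arrays, which ran from 15.8 to 61.5. It is read by 1 probe set. In a list of 12 measured genes taken from the study's main text, Trim29 and Gper1 were lower at p under 0.05 and 0 were higher. The list does not hold all genes that the study names for the stroma (Foxm1, Ncapg, Fcer1g, Cald1 and Msmo1, listed there by an older symbol, are others), and since the study named them on these samples, none is independent evidence. Tnc, the matrix protein tenascin C, was also without overlap, at 937.0, 1397.1 and 1540.9 with EE2 against 2049.4, 2474.4 and 1867.1 with vehicle (−0.74, SE 0.63).

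Promoter letters of 3 of these genes are shown because an estrogen receptor dimer binds a palindrome built of the motif GGTCA and its reverse complement TGACC. Gper1 had neither in its window. Ap1g1 had the most (3) of the 10 named higher genes with a matched promoter, and Tsx the most (2) of the 11 such lower genes. Each line gives the 250 bases before the annotated start in RefSeq's GRCm38.p6, 5′ to 3′ on the gene's strand, with GGTCA and TGACC in capitals. The windows are chr5:139422929-139423178 for Gper1, chr8:109778333-109778582 for Ap1g1 and chrX:103414217-103414466 for Tsx, all on the plus strand.
Gper1: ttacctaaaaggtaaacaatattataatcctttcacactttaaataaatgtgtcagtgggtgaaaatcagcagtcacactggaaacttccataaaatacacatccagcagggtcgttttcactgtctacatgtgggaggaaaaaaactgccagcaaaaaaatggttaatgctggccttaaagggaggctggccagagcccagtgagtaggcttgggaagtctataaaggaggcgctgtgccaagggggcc
Ap1g1: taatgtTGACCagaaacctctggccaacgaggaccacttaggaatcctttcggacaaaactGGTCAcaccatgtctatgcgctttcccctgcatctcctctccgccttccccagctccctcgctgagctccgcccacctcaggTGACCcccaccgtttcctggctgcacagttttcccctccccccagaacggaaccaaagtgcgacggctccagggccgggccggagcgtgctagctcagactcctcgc
Tsx: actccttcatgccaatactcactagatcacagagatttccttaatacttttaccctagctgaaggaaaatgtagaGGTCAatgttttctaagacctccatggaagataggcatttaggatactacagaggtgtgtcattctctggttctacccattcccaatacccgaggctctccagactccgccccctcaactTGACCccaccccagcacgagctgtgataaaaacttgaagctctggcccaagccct
Of the 24 named genes 21 matched a RefSeq promoter, and 0 of their 24 windows held the full palindrome, GGTCA then TGACC after a 3-base gap, which stood in 0.0639% of all 32851 windows. GGTCA or TGACC stood in a window of 3 of 10 matched higher genes and 5 of 11 matched lower genes, against 35.2% of all windows, and 2 or more in 8.16%. Such a match describes letters and was not tied to binding.

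Of 45 measured genes known to respond to estrogen, 1 was higher and 0 lower at p under 0.05, near the 1.78% and 2.13% of all genes, with a median change of −0.01. The 1 was Stc2, the secreted glycoprotein stanniocalcin 2, with 730.9, 447.7 and 1003.5 with EE2 against 169.9, 11.6 and 522.5 with vehicle (2.77, SE 1.12). Its groups overlapped, since vehicle replicate 3 passed EE2 replicate 2, and all 3 of its probe sets were positive. Pgr, the progesterone receptor and a classical target, was dim at 10.5, 19.8 and 19.1 with EE2 against 10.7, 11.4 and 20.1 with vehicle (0.23, SE 1.43). Greb1, an estrogen-induced cofactor, had 4.4, 17.2 and 2.7 against 12.4, 4.5 and 3.1 (0.08, SE 0.98), so both lay near the dim end in every array. Siah2, a ubiquitin ligase, was lower without overlap at 28.4, 27.0 and 21.5 with EE2 against 66.3, 116.0 and 85.5 with vehicle (−1.77). Igf1, the stromal growth factor, was bright at 919.6, 1494.1 and 2126.4 with EE2 against 1250.0, 791.6 and 1659.2 with vehicle (0.28, 95% interval −1.11 to 1.66). The interval allows changes of more than 2-fold either way. Among 23 estrogen receptor coregulators 0 were higher and 0 lower at p under 0.05, with a median of 0.12.

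Over all 33 lists chosen for this tissue, with 838 genes measured, 11 genes were higher and 19 lower at p under 0.05, near the 1.78% and 2.13% of all 18194 genes, and 0 passed adjustment. The counts given for single lists are read against the same shares and, unless stated, come from before quantile normalization. After it, the lower counts became 3 for endothelium, 3 for chemokines and complement, 1 for stress genes and 0 for mast cells. The higher counts became 3 for the mammary bud, 1 for cholesterol synthesis and 1 for adipocyte markers, beside those given below.

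**Figure D4:**
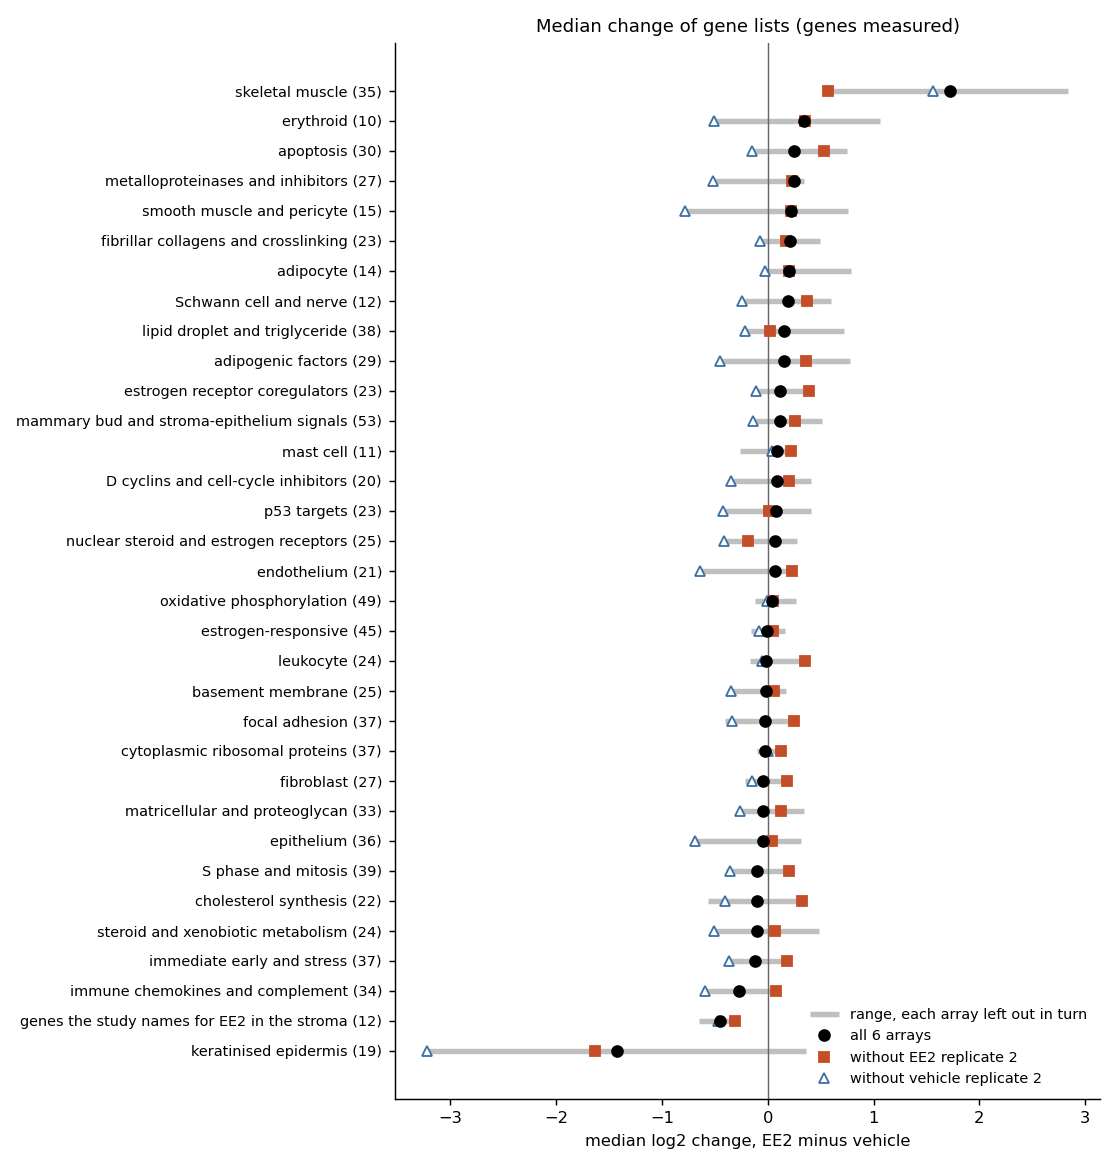
Median log2 change, EE2 minus vehicle, of each gene list over the brightest probe set of each measured gene (number in brackets), with the lowest and highest median when 1 array was left out. The skeletal muscle list has a median of 1.72 and 0.57 without EE2 replicate 2, the keratinised epidermis list −1.42 with a highest leave-one-out value of 0.36, and most others lie near 0.

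Of the cell types that stroma can hold, vessel genes gave an uneven picture. Vwf, the von Willebrand factor of endothelium, had signals of 59.9, 10.9 and 44.9 with EE2 against 346.7, 128.5 and 199.9 with vehicle (−2.75, SE 1.01). Pecam1, a junction protein of endothelium, had 642.1, 267.2 and 286.5 against 1196.1, 1203.7 and 778.3 (−1.50, SE 0.76). Plvap, a protein of endothelial fenestrae, had 329.8, 165.5 and 377.9 against 563.2, 972.1 and 646.0 (−1.37, SE 0.68). All 3 were without overlap, yet Cdh5, the endothelial cadherin, had 754.2, 611.8 and 1589.6 with EE2 against 691.4, 29.5 and 1180.4 with vehicle (1.64). Over 21 endothelial markers 0 were higher and 1, Vwf, lower at p under 0.05, and 12 had a positive change. After quantile normalization 0 were higher and 3 lower, beside 5.55% of all probe sets in either direction. The summed share of the 21 markers was 0.0729% ± 0.015 with EE2 and 0.0803% ± 0.0108 with vehicle (SD, n = 3 each). In bulk tissue fewer cells of a type and less RNA per cell cannot be told apart.

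Smooth muscle, leukocyte and mast cell lists each had 1 lower gene and 0 higher. Myh11, the smooth muscle myosin heavy chain, had 803.0, 218.3 and 61.0 with EE2 against 1354.8, 2467.9 and 1249.7 with vehicle (−2.87, SE 1.30). Fcer1g, the Fc receptor γ chain, had 291.9, 195.1 and 317.1 against 439.8, 711.2 and 686.2 (−1.19, SE 0.55). Kit, the stem cell factor receptor of mast cells and melanocytes, had 20.5, 42.9 and 24.0 against 50.4, 138.7 and 105.6 (−1.71, SE 0.81). None of these groups overlapped. Acta2, smooth muscle actin, had 2064.4, 706.1 and 2265.0 with EE2 against 1604.2, 981.6 and 4705.1 with vehicle (−0.39), so the smooth muscle markers did not move as 1 group: 9 of 15 had a positive change.

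Fibroblast, Schwann and erythroid lists had 0 genes at p under 0.05, with medians of −0.04, 0.19 and 0.34. The 36 epithelial markers had 1 higher (Elf5) and 2 lower (Trp63 and Lamb3) and a median of −0.04. Trp63, the p63 factor of basal epithelium, had 39.0, 141.1 and 39.0 with EE2 against 315.8, 284.2 and 207.5 with vehicle (−2.15, SE 0.76), without overlap and with p under 0.05 whichever array was left out. Elf5, a luminal transcription factor, had 12.6, 27.1 and 124.2 against 12.2, 1.1 and 2.5 (3.43, SE 1.49). Epcam, a general epithelial marker, had 525.0, 361.2 and 1551.8 with EE2 against 1215.3, 1113.1 and 144.3 with vehicle (0.20), which gives no common direction. The keratinised epidermis list had 1 higher (Sprr1a) and 2 lower genes (Ivl and Dsc1) of 19, and its median was −1.42, with leave-one-out medians from −3.22 (without vehicle replicate 2) to 0.36 (without vehicle replicate 3, the array with epidermis signal).

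Of 23 genes for fibrillar collagens and their crosslinking, 1 was higher, the Bmp1 described above, and 0 lower, with a median of 0.21. Col3a1, the second fibrillar chain, had 10879.8, 9103.2 and 11471.9 with EE2 against 10692.5, 9898.5 and 10692.3 with vehicle (0.00, 95% interval −1.03 to 1.03). Among 33 matricellular and proteoglycan genes 0 were higher and 0 lower. Basement membrane genes had 1 higher and 1 lower of 25: Lama1, a laminin α chain, at 50.4, 65.6 and 222.9 with EE2 against 50.3, 39.8 and 7.6 with vehicle (1.87, SE 0.82), and Lamb3, a laminin of skin, at 1.3, 15.8 and 2.5 against 9.8, 28.2 and 59.0 (−2.77, SE 1.17). For Lama1 the lowest EE2 array exceeded the highest vehicle array by 50.4 to 50.3 only, and the Lamb3 groups overlapped.

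Focal adhesion genes had 0 higher and 1 lower of 37. The 1 was Itga1, the integrin chain that binds collagen, with 346.9, 85.1 and 149.3 with EE2 against 474.2, 1275.1 and 1403.2 with vehicle (−2.53, SE 0.89), and both its probe sets were negative. Metalloproteinases and their inhibitors had 0 higher and 1 lower of 27. Mmp9, a gelatinase, was dim at 1.6, 10.2 and 17.2 with EE2 against 21.9, 26.6 and 17.5 with vehicle (−1.73, SE 0.74). Plau, urokinase, was bright and without overlap at 755.0, 1167.3 and 1139.3 against 476.4, 67.6 and 413.9 (2.08, SE 1.07), and both its probe sets were positive. Plau and Plat together encode the plasminogen activators, but the brightest Plat probe set had a change of −1.51.

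The 29 adipogenic factors had 0 higher and 0 lower at p under 0.05 (beside 3.9% of all genes in either direction), with a median of 0.15. Pparg, the master regulator of adipocytes, had 705.7, 459.8 and 829.4 with EE2 against 362.7, 390.3 and 1340.1 with vehicle (0.17, SE 0.73). Adipoq, adiponectin, had 5377.7, 5023.1 and 4970.4 against 2407.2, 3415.0 and 5897.6 (0.49, SE 0.62), and Lep, leptin, had 252.2, 327.2 and 154.9 against 71.8, 1.7 and 214.0 (2.98, SE 1.54). In all 3, vehicle replicate 3 lay above at least 1 EE2 array. Of 38 lipid droplet and triglyceride genes 1 was higher and 0 lower: Me1, the malic enzyme that supplies NADPH, with 351.8, 379.4 and 543.4 with EE2 against 151.2, 1.5 and 431.4 with vehicle (3.18, SE 1.39, and 0.71 as the lowest change with 1 array left out). Cholesterol synthesis genes had 0 higher and 1 lower of 22, Msmo1, a methylsterol oxidase, with 56.6, 78.8 and 60.4 against 135.6, 145.8 and 291.2 (−1.47, SE 0.64), without overlap.

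Cell cycle genes had 0 higher and 3 lower of 39 for S phase and mitosis, and a median of −0.10. They were Foxm1, Prc1, a midzone protein of the spindle, at 626.2, 95.7 and 193.7 with EE2 against 755.8, 1268.5 and 598.9 with vehicle (−1.88, SE 0.82), and Ncapg, a condensin subunit, at 269.6, 232.9 and 434.2 against 658.6, 515.9 and 928.7 (−1.18, SE 0.55). Ncapg did not overlap between groups and Prc1 did. Mki67, the standard proliferation marker, had 5048.7, 3638.0 and 5559.4 with EE2 against 5403.7, 3556.6 and 5438.6 with vehicle (−0.01, 95% interval −1.11 to 1.09). Ccnd1, cyclin D1, had 1295.3, 675.6 and 1658.3 against 1395.5, 1190.0 and 1744.6 (−0.33, SE 0.63), and the 20 D cyclins and inhibitors as well as the 23 p53 targets had 0 higher and 0 lower.

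Ddit3, the stress factor CHOP, was the 1 higher gene of 37 immediate early and stress genes, with 349.0, 1013.4 and 164.7 with EE2 against 107.5, 13.1 and 111.8 with vehicle (2.84, SE 0.97). Its groups did not overlap, and the highest value came from EE2 replicate 2. Bcl2 was the 1 higher gene of 30 in the apoptosis list, whose summed share was 0.137% ± 0.00296 with EE2 and 0.117% ± 0.00946 with vehicle (SD, n = 3 each; exact permutation test, two-sided, p = 0.10, the smallest possible). Chemokine and complement genes had 0 higher and 2 lower of 34. Ccl5, which attracts T cells, had 3.7, 3.4 and 15.4 with EE2 against 24.8, 110.5 and 113.7 with vehicle (−3.55, SE 1.19), and Ccl17, another T cell chemokine, had 1.7, 1.9 and 1.1 against 11.7, 4.6 and 25.9 (−2.87, SE 0.93). Both were without overlap and had p under 0.05 in every leave-one-out fit, but at dim signals.

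Signals of the mammary bud had 2 higher and 0 lower of 53. Wnt7b, a secreted Wnt ligand, had 7.4, 25.1 and 9.7 with EE2 against 3.5, 1.4 and 3.8 with vehicle (2.20, SE 0.76). Eda, the ectodysplasin ligand of skin appendage growth, had 22.9, 64.4 and 38.3 against 24.6, 4.4 and 2.7 (2.53, SE 0.99). Both were dim, and Eda overlapped. The 49 oxidative phosphorylation genes, 37 cytoplasmic ribosomal protein genes and 24 steroid and xenobiotic metabolism genes had 0 at p under 0.05 in either direction, with medians of 0.04, −0.03 and −0.10. After quantile normalization 2 of the oxidative phosphorylation genes and 1 of the steroid and xenobiotic genes were higher at p under 0.05. Changes ran from −1.70 to 2.52 in the last list, whose median moved between −0.51 and 0.48 when 1 array was left out.

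The ERα(−/−) stroma addressed whether an EE2 change needs the receptor. The ERα(−/−) fetuses came from the same crosses, and the labels do not tell which shared a litter with a wild type fetus. Tested directly, the difference of the EE2 change between genotypes (wild type minus ERα(−/−)) had 0 probe sets at adjusted p under 0.05 and 1800 at unadjusted p under 0.05 (3.99%). EE2 against vehicle within ERα(−/−) stroma had 1875 (4.16%). Of the 24 named genes, 6 higher and 8 lower ones had an unadjusted p under 0.05 for the difference, all with an adjusted p of 1, and 0 of 24 had p under 0.05 within ERα(−/−) stroma, where 7 and 6 kept their sign. These genes were chosen for a large change in wild type stroma, which enters the difference.

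Trim29 had a change of 0.19 in ERα(−/−) stroma, and the difference between genotypes was −2.11 (SE 0.80, adjusted p = 1). Gper1 had 0.09 there and a difference of −3.44 (SE 1.38). Vwf had 1.53 in ERα(−/−) stroma, a difference of −4.27 (SE 1.43), and Trp63 had 1.27, a difference of −3.41 (SE 1.07). Each of these differences had an unadjusted p under 0.05 and an adjusted p of 1, and for these 4 genes the ERα(−/−) change was near 0 or of the opposite sign. Trim29 and Gper1 come from the study's text on these samples. Vwf and Trp63 were picked from lists for a small p in wild type stroma. Both choices favour a difference between genotypes, so these values are no independent evidence. Agap3 had mean signals of 2.63 with EE2 and 7.7 with vehicle in ERα(−/−) stroma (difference 5.51, SE 1.36), and Trim45 had 30.6 with EE2 and 5.93 with vehicle there (difference −7.19, SE 1.84). Acer3 kept its sign, with means of 11.2 with EE2 and 44.7 with vehicle in ERα(−/−) stroma (−1.79, difference −4.41). By the mean of the log2 signals, wild type EE2 was the highest of the 6 stroma groups in 11 of the 12 higher genes and the lowest in all 12 lower genes, and wild type vehicle was the lowest in 9 and the highest in 12. The choice of the genes on these 2 groups favours such extremes. Arithmetic means can order the groups differently, as for Ppp2r5e with 6.63 in wild type EE2 and 5.9 in ERα(−/−) EE2 stroma.

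**Figure D5:**
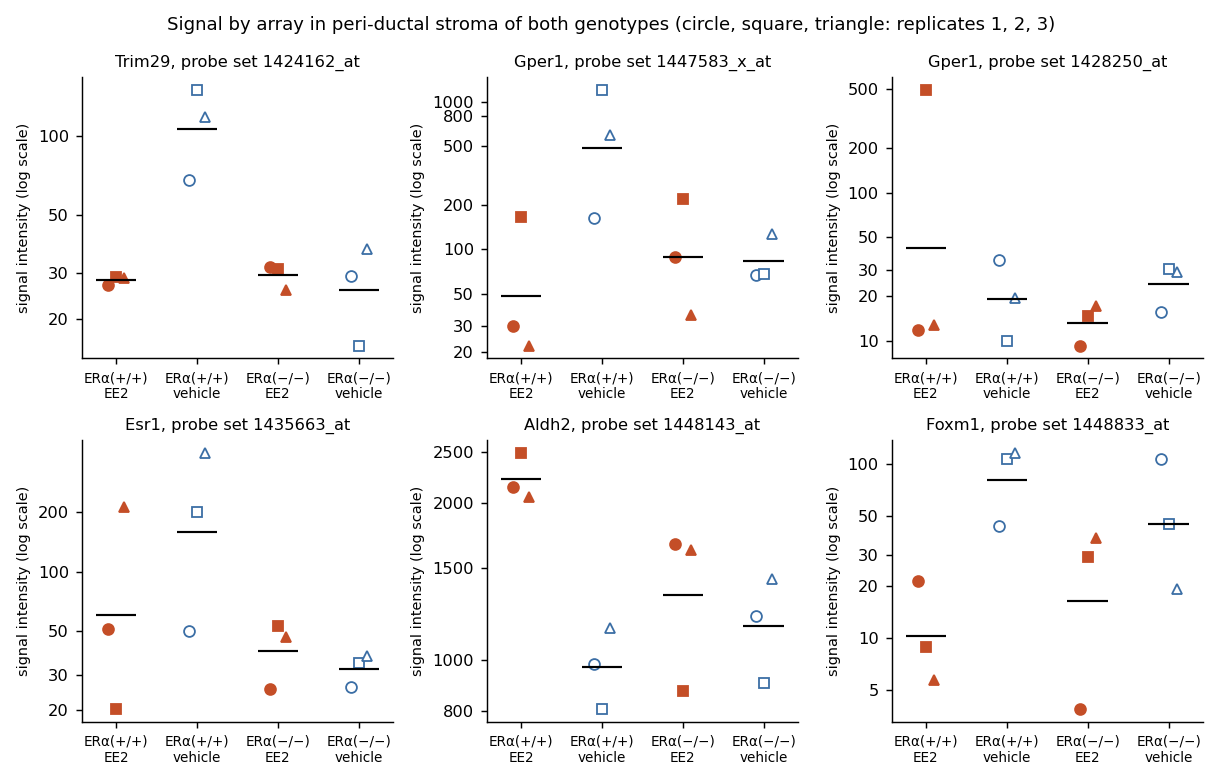
Signal (log scale) of Trim29, 2 Gper1 probe sets, Esr1, Aldh2 and Foxm1 on each array, EE2 (filled) and vehicle (open), in ERα(+/+) and ERα(−/−) stroma, with the mean of the log values as a bar. For Trim29 the wild type vehicle arrays stand at 67.8 to 150.3, above all other groups, and for the second Gper1 probe set 1 array alone, EE2 replicate 2, reaches 496.1.

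BPA arrays of wild type stroma share the vehicle arrays, so values are set side by side, and doses differed (10 ng EE2 against 250 ng BPA per kg per day). The mean signal of Trim29 was 28.1 with EE2, 28 with BPA and 112 with vehicle. That of Gper1 was 72.3 with EE2, 125 with BPA and 656 with vehicle, and that of Aldh2 was 2227 with EE2, 1551 with BPA and 982.1 with vehicle. Plat had 203 with EE2, 8.17 with BPA and 7.1 with vehicle, and Lcat had 12.7 with EE2, 143.5 with BPA and 151 with vehicle. Some of these means had an SD above the mean itself, 225.5 for Plat with EE2 and 192.6 for Lcat with BPA. On the log2 scale BPA minus vehicle was 1.10 for Plat and −1.08 for Lcat. Whether the order of the groups varied by gene was not tested. Compared directly, EE2 minus BPA had 0 probe sets at adjusted p under 0.05 and 1722 at unadjusted p under 0.05 (3.82%), and 7 of the 12 higher and 5 of the 12 lower named genes had p under 0.05 here. All 12 had an adjusted p of 1. The named genes were chosen on these same EE2 arrays, which favours a difference from BPA, so the count supports nothing.

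The epithelium of the same design, fitted on its own arrays, had 2772 probe sets at unadjusted p under 0.05 for EE2 against vehicle (6.15%). Of the 24 genes, 1 had p under 0.05 there: Snx4, with a change of −2.81 in epithelium and 4.21 in stroma. Trim29 had −0.25 and Gper1 −1.0 in epithelium. The difference between compartments was not tested.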

How the data were processed

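Peri-ductal stroma from 18 fetuses was profiled on Affymetrix mouse arrays, of which 3 EE2 and 3 vehicle arrays of wild type fetuses are compared. Per the labels, the scanner files came from GCOS; the study's methods name RMA normalization, but the deposited values are linear signal intensities of each array by the authors, and their scaling is not given in the sources used here. Values under 0.1 (3 zeros on the 6 arrays) were raised to 0.1 and log2 transformed without further normalization. The fit was limma (version 3.58.1, R 4.3.3) over the 6 stroma groups with Benjamini-Hochberg adjustment. Epithelium was fitted separately. Of the probe sets, 34958 had 1 gene symbol, 932 several and 9211 none; lists use the brightest probe set of each of 18194 genes. Where both scales met the conditions given, the 12 named genes per direction are those with the smallest p. Genes beyond that rule are list members, genes of the study's text, or are said to be chosen after their values were seen. Members, lists and rules were chosen with earlier results of these data known. Scripts were tested on simulated data. Alternatives were quantile normalization, subtracted medians, 16 added or as a floor, a minimum signal, array weights, a signal-dependent prior, a replicate block, left-out arrays and the methods' t-test. Exact permutation tests used SciPy 1.17.1, tables pandas 2.3.3 and Python 3.11.15, and plots matplotlib 3.10.9. Array number limits the precision.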

Additional observations from a re-analysis of the deposited data

How the results depend on the processing

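The count at adjusted p under 0.05 in wild type stroma was 0, became 2 with values raised to at least 16 (both probe sets without a gene symbol), ran from 0 to 1 when 1 array was left out, and was 1 after quantile normalization without EE2 replicate 2, the last being Acer3 (log2 change −7.71 without that array and −7.48 with quantile normalization as well). The 918 higher probe sets at unadjusted p under 0.05 became 300 with a geometric mean signal of at least 50 (fewer probe sets tested), 586 with array weights, 604 with only the groups compared, and 417 to 1963 when 1 array was left out. They were 1823 and 1702 after quantile normalization without vehicle replicate 1 and without vehicle replicate 3, 471 without EE2 replicate 2 and vehicle replicate 2 (chosen after seeing the data), and 319 by the methods' t-test with 2-fold. The 1076 lower ones became 369 with the minimum signal, 843 to 1707 when 1 array was left out, 1680 and 1673 after quantile normalization without vehicle replicate 1 and without EE2 replicate 3, 1651 without both replicates 2, and 494 by that t-test. The genotype difference (1800) became 456 with the minimum signal and 2740 after quantile normalization without vehicle replicate 1. EE2 minus BPA had 1 at adjusted p under 0.05 with values raised to 16; its 1722 at unadjusted p under 0.05 became 436 with the minimum signal, 3718 with array weights, 1647 to 2675 with 1 array left out, 2658 and 2632 after quantile normalization without BPA replicate 1 and without EE2 replicate 3, and 880 by that t-test. The cause was not tested. Replicate numbers do not pair litters, since EE2 and vehicle arrays came from different dams. After group means were subtracted, same-numbered pairs correlated at 0.0513, 0.0445 and 0.0719, and all other pairs at −0.0684 to 0.0148. Each EE2 array thus correlated best with its own number. Whether the numbers mark a shared batch is not given by the labels and was not tested. With the replicate block there were 1067 higher and 1137 lower probe sets, 0 at adjusted p under 0.05, and the block changed no other call. The 24 named genes kept their direction in all 537 values computed under alternatives, with 535 on the same side of adjusted p 0.05 and 2 past the adjusted threshold (Acer3). Their direction was largely fixed by the choice of genes without overlap on both scales, so this is no support for them. Of 791 list medians 782 stayed within 1 SD, a limit set for each list, and 9 in 5 lists did not. Among the latter were epithelium (−0.69 without vehicle replicate 2), receptors (−0.88 with the minimum signal) and adipogenic factors (0.78 without vehicle replicate 3). The limit was 2.008 for skeletal muscle and 2.269 for keratinised epidermis. Their medians of 0.57 to 2.84 and −3.22 to 0.36 with 1 array left out thus counted as within it. A median could also change sign within its limit, so the count of 782 does not show stable medians. The t-test was not run for the genotype difference. Signals near the dim end, with an SD above 1 on the log2 scale, limit most of the named genes.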
